A study of Mus musculus with 12 samples.

Results

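The genes described here make cholesterol, sense it, move it within the cell and export it. They are 32 of the 32544 gene symbols in the table of counts of mouse 3T3 fibroblasts. They were chosen by name, as 7 enzymes of the mevalonate and isoprenoid steps, 11 of the squalene and sterol steps, 4 regulators of sterol sensing, 6 genes of uptake, transport and storage, and 4 of efflux. All 32 symbols were found, and all 32 passed the filter on low counts.

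Cells build cholesterol from acetyl-CoA through mevalonate and squalene. When membranes of the endoplasmic reticulum are poor in sterol, SCAP escorts the transcription factor SREBP2 (gene Srebf2) to the Golgi, where proteases release its active part, which turns on the genes of synthesis. When sterol is plentiful, INSIG proteins hold SCAP back, while oxysterols activate the LXR receptors (genes Nr1h2 and Nr1h3), which turn on efflux pumps such as Abca1.

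Bulk RNA was sequenced from 3T3 cells, an established fibroblast line from mouse, with 12 libraries in 4 equal groups. Untreated cells formed one group. The rest had 24 h of exposure to extracellular vesicles (EVs), small membrane-bound particles, from the human breast cancer line MDA-MB-468. The donor cells were control (shCon), carried a knockdown of CRIPTO (shCr) or overexpressed CRIPTO (CrOE), a cell-surface protein of development and cancer. The comparisons ask what the EVs changed and whether CRIPTO in the donor line made a difference. No group is labelled as a vector control for the overexpressing donor cells. With CrOE EVs, CRIPTO and other differences between the donor cells therefore cannot be told apart. All groups share the same recipient line and the same strand-keeping poly(A) library kit. The EV dose, the culture medium and whether replicates were separate cultures are not given in the sources used here, so p-values measure the spread between these libraries, which may be technical. The columns taken as CrOE carry the name Cripto and were assigned by elimination, since the knockdown samples have columns of their own.

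Libraries held 25960054 to 37774020 estimated counts. Mitochondrial genes took 0.495% to 1.64% of counts in untreated libraries, 1.35% to 1.64% with shCon EVs, 0.622% to 1.7% with shCr EVs and 0.693% to 1.44% with CrOE EVs. The CrOE EV libraries stand apart from all others: across genes they correlated at 0.9 to 0.921 with libraries of other groups, against 0.974 to 0.991 between the remaining groups (Pearson's r of log2 CPM, a description over 14279 genes). All 9 fibroblast markers on a fixed list were detected in every group, Lum by a single count in the CrOE EV group, and their summed level was 15580 to 16630 CPM (counts scaled to library size by TMM) in untreated libraries. It was 17340 to 17510 with shCon EVs, 12210 to 13750 with shCr EVs and 4765 to 4938 with CrOE EVs. Epithelial, endothelial and adipocyte lists summed to at most 1.59 CPM in any library, and Epcam had no counts. The macrophage list summed to 48.6 to 59.4 CPM in untreated libraries. It summed to 82.0 to 92.5 with shCon EVs, 129 to 193 with shCr EVs and 4.57 to 5.96 with CrOE EVs. Most of that was Lyz2, at 50.3, 49.1 and 41.4 CPM in untreated libraries, 84.7, 75.7 and 73.4 with shCon EVs, 186, 132 and 121 with shCr EVs and 1.4, 1.22 and 1.12 with CrOE EVs. Of the other 4 genes on that list, Cd68 was at 4.54 to 7.62 CPM over the untreated, shCon EV and shCr EV libraries and 2.62 to 3.45 with CrOE EVs, and Csf1r at 1.59 to 2.52 and 0.669 to 1.33. Ptprc was at or below 0.250 CPM in every library, and Adgre1 had at most 1 count. Group means of Lyz2 ran in the order that most of the genes described next had, lowest with CrOE EVs and highest with shCr EVs. The means of Cd68 and Csf1r were not above untreated with shCon or shCr EVs. The fibroblast sum was lower with shCr EVs than in untreated libraries, but its genes did not move as one. Col1a1 and Col1a2, the largest parts of the sum, had lower means (4535 to 3532 and 4919 to 3429 CPM). So had Col3a1, Pdgfra, Thy1 and S100a4, whereas Vim (2564 to 2709), Pdgfrb (547 to 730) and Lum (3.82 to 5.59) had higher ones. With shCon EVs Vim, Pdgfra, Thy1 and S100a4 had lower means than untreated although the sum was higher. With CrOE EVs every marker on the list had a lower mean. What part these markers had in the results below was not tested. In bulk RNA, fewer cells of a type and less RNA per cell cannot be told apart.

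The 18 enzymes of synthesis together took 0.594% to 0.656% of all counts in untreated cells. With shCon EVs the share was 0.807% to 0.834%, with shCr EVs 0.906% to 0.997%, and with CrOE EVs 0.194% to 0.207%. The 4 ranges do not overlap.

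**Figure D1:**
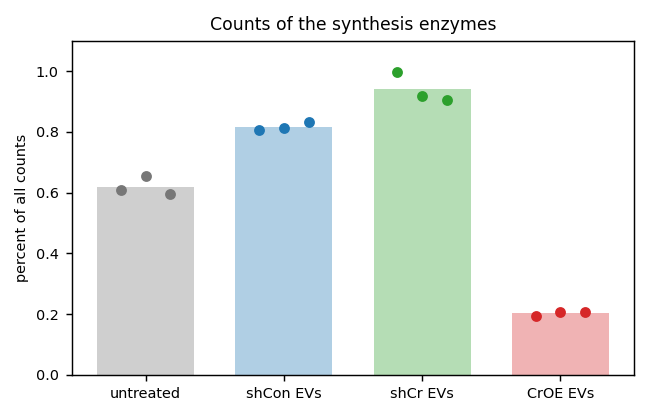
Share of all counts, in percent, taken by the 18 enzymes of cholesterol synthesis in each group; points are libraries and bars are means of 3 libraries. The shCr EV libraries lie highest, at 0.906% to 0.997%, and the CrOE EV libraries lowest, at 0.194% to 0.207%.

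Gene by gene, all 18 enzymes were called higher after shCon EVs and all 18 after shCr EVs, and all 18 were called lower after CrOE EVs, each against untreated cells (edgeR's quasi-likelihood test, Benjamini-Hochberg adjusted p under 0.05 over all 14279 genes tested). Among all genes tested, 18.0% were called higher after shCon EVs, 18.4% were called higher after shCr EVs and 37.0% were called lower after CrOE EVs. These comparisons share the untreated libraries. The enzymes' median log2 fold change was 0.37 with shCon EVs, 0.61 with shCr EVs and -2.04 with CrOE EVs, against 0.0069, 0.020 and 0.0078 over all genes tested. Across the 4 groups at once, the F-test called all 32 genes, where it called 81.3% of all genes tested. Over the 32 genes, 27 were called higher and 0 lower after shCon EVs (20.2% of all genes tested lower), 29 higher and 0 lower after shCr EVs (18.8% lower), and 4 higher and 27 lower after CrOE EVs (36.7% higher). The 4 called higher with CrOE EVs were Npc1, Npc1l1, Soat1 and Nr1h2. Npc1l1 passed the filter on low counts only through the CrOE EV libraries, so its call there was fixed by the filter and stands in these counts as a description.

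**Figure D2:**
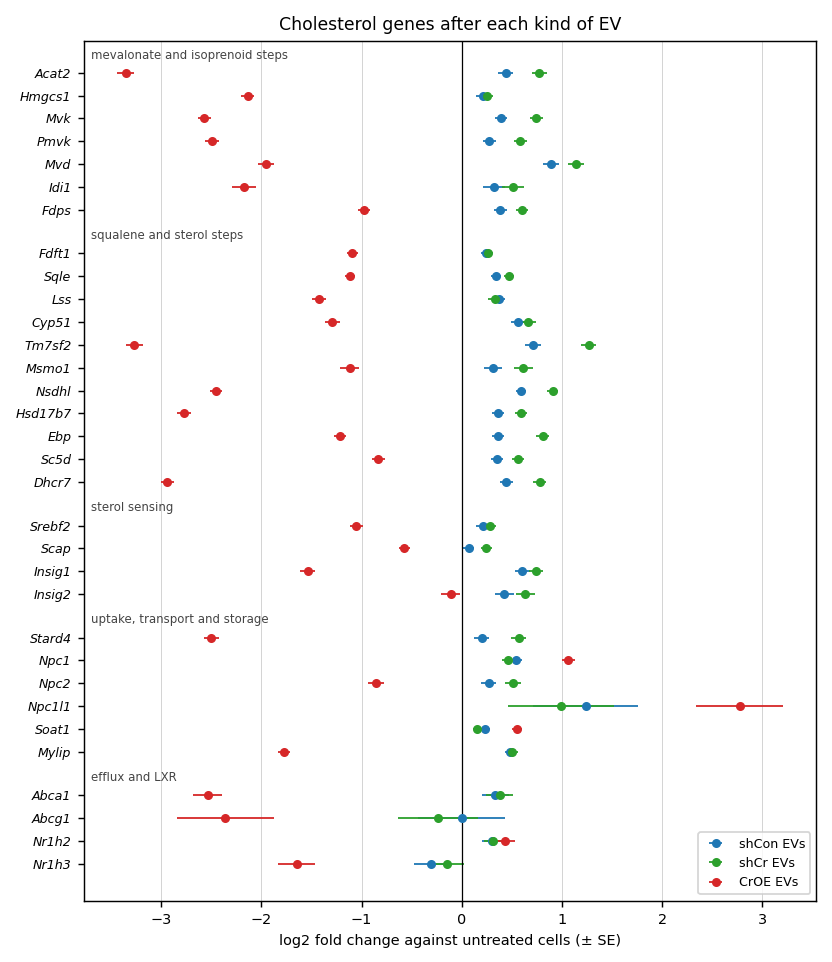
Log2 fold change against untreated cells, with its standard error, for each of the 32 genes with each kind of EV, arranged by role. The 18 enzymes lie right of 0 after shCon and shCr EVs and left of 0 after CrOE EVs; Npc1, Npc1l1, Soat1 and Nr1h2 lie right of 0 after all 3 kinds of EV.

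In 25 of the 32 genes the group means ran in one order, lowest after CrOE EVs, then untreated, then shCon EVs, and highest after shCr EVs. That order held for 10.2% of all genes tested. It was picked as the commonest among these 32 genes, so the comparison is a description and not a test. The step from shCon to shCr EVs was a call in 10 of the 32 genes, all higher, so for most of them these neighbours did not pass the test. Among all genes tested, 5.22% were called higher at that step and 3.51% lower. Other steps of the order were no calls for Insig2 (CrOE EVs against untreated cells, adjusted p = 0.3) and for Scap and Abca1 (shCon EVs against untreated cells, adjusted p = 0.388 and 0.0686).

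The mevalonate steps start with Acat2, the cytosolic acetoacetyl-CoA thiolase. Acat2 was at 594, 649 and 572 CPM in the untreated libraries, 802, 815 and 844 with shCon EVs, 1108, 1030.2 and 966 with shCr EVs and 52.8, 63.1 and 61.7 with CrOE EVs. The groups did not overlap, and the libraries after CrOE EVs lay 10.2-fold below untreated cells in the fit (log2 fold change -3.35, SE 0.083, adjusted p = 1.62e-12). After shCon and shCr EVs the log2 fold changes of Acat2 were 0.44 (SE 0.075, adjusted p = 0.000557) and 0.77 (SE 0.075, adjusted p = 5.06e-06). Among its 31-base stretches 43.7% also occur in its paralog Acat3, so its counts are uncertain; Acat3 itself was at 5.2, 6.02 and 5.7 CPM in untreated cells and 0.856, 0.902 and 0.618 after CrOE EVs.

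Hmgcs1, HMG-CoA synthase, had the smallest rises of the 18 enzymes, with log2 fold changes of 0.21 (SE 0.066, adjusted p = 0.0235) after shCon EVs and 0.25 (SE 0.066, adjusted p = 0.00928) after shCr EVs. It fell by 2.14 on the log2 scale after CrOE EVs. Exons of Hmgcs1 overlap those of a gene on the other strand over 12.1% of their bases. Its call after shCon EVs was lost on leaving out untreated replicates 1 and 3 (adjusted p 0.102 and 0.0931) or shCon EV replicates 2 and 3 (adjusted p 0.059 and 0.0813), and that after shCr EVs on leaving out untreated replicate 1 (adjusted p 0.0532).

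Mvk, mevalonate kinase, was at 147, 164 and 143 CPM in the untreated libraries, 189.5, 197 and 208 with shCon EVs, 246, 255 and 259.5 with shCr EVs and 24.3, 26.7 and 25.5 with CrOE EVs. Pmvk, which adds the second phosphate, was at 78.3, 83.6 and 77.1 CPM in the untreated libraries, 91.7, 95.9 and 102 with shCon EVs, 126, 118 and 115 with shCr EVs and 13.2, 14.2 and 15.1 with CrOE EVs. Mvd, the decarboxylase that ends the mevalonate stage, was at 276, 344 and 268 CPM in the untreated libraries, 533, 547 and 570.3 with shCon EVs, 642, 659 and 659 with shCr EVs and 74.2, 75.7 and 79.3 with CrOE EVs. In all 3 genes the untreated libraries lay between the shCon EV and CrOE EV libraries with no overlap, and the shCr EV libraries lay above all others. Mvd had the largest rise of the mevalonate enzymes, 0.89 (SE 0.079, adjusted p = 2.55e-06) after shCon EVs and 1.14 (SE 0.08, adjusted p = 2.78e-07) after shCr EVs as log2 fold changes. After CrOE EVs the log2 fold changes of Mvk, Pmvk and Mvd were -2.57, -2.49 and -1.95, all calls.

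Idi1, which isomerises the isoprene unit, was at 261, 272 and 253 CPM in untreated cells, 335, 323 and 327 with shCon EVs, 468, 319 and 337 with shCr EVs and 55.8, 61.2 and 57.2 with CrOE EVs. One library after shCr EVs, replicate 1, stood well above its replicates, which lay within or beside the shCon EV range. The rise of Idi1 after shCon EVs (0.33, SE 0.11, adjusted p = 0.036) was lost as a call on leaving out untreated replicates 1 and 3 (adjusted p 0.0999 and 0.11) or shCon EV replicates 1, 2 and 3 (adjusted p 0.0914, 0.073 and 0.0807). Fdps, farnesyl diphosphate synthase, whose product also feeds protein prenylation, had the smallest fall of this stage after CrOE EVs (-0.98, SE 0.061, adjusted p = 1.06e-08). Shared sequence makes Idi1 and Fdps uncertain as well: 18.8% of the 31-base stretches of Idi1 and 27.9% of those of Fdps occur in other genes, mostly Gm13502 and Gm43738.

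The squalene and sterol steps begin with Fdft1, squalene synthase, and Sqle, squalene epoxidase, a step known to limit flux. Their log2 fold changes were 0.24 (SE 0.054) and 0.35 (SE 0.05) after shCon EVs, 0.26 (SE 0.054) and 0.47 (SE 0.05) after shCr EVs, and -1.09 (SE 0.054) and -1.12 (SE 0.051) after CrOE EVs. Exons of Fdft1 overlap those of Ctsb on the other strand over 18.3% of their bases. Although the kit keeps strand, whether counting used it is not given in the sources used here. The log2 fold changes of Ctsb were 0.15 after shCon EVs (adjusted p = 0.0572), 0.40 after shCr EVs (adjusted p = 0.000134) and -0.82 after CrOE EVs. Fdft1 also shares 14.3% of its 31-base stretches with Gm6781, so its counts are uncertain. Lss, lanosterol synthase, and Cyp51, the lanosterol demethylase, were called in the same directions, with 0.37 and 0.57 after shCon EVs, 0.33 and 0.66 after shCr EVs, and -1.42 and -1.29 after CrOE EVs. Lss is the only enzyme of the 18 whose mean after shCr EVs was not the highest of the 4 groups.

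Tm7sf2, a sterol reductase that acts after Cyp51, moved most of the 18 enzymes after shCr EVs. It was at 71.4, 84.1 and 74.4 CPM in the untreated libraries, 119.6, 126 and 131 with shCon EVs, 184, 184 and 186 with shCr EVs and 7.71, 7.19 and 8.99 with CrOE EVs. No library of any group overlapped another group. The log2 fold changes of Tm7sf2 were 0.71 (SE 0.075, adjusted p = 1.18e-05), 1.27 (SE 0.076, adjusted p = 7.18e-08) and -3.27 (SE 0.087, adjusted p = 3.07e-12) after shCon, shCr and CrOE EVs. Tm7sf2 shares 12.9% of its 31-base stretches with other genes, mainly the adjoining Vps51. The log2 fold changes of Vps51 were 0.26, 0.31 and -0.62 after shCon, shCr and CrOE EVs, all calls.

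Nsdhl and Hsd17b7 are among the enzymes that remove methyl groups from the sterol ring. Nsdhl was at 359, 369 and 361 CPM in the untreated libraries, 531, 552 and 558 with shCon EVs, 731, 666 and 647 with shCr EVs and 64, 66.5 and 68.7 with CrOE EVs. Hsd17b7 was at 161, 172 and 158 CPM in the untreated libraries, 208, 212 and 212 with shCon EVs, 269, 239 and 233 with shCr EVs and 23.1, 25.5 and 23.3 with CrOE EVs. Both sets of libraries fall into 4 separate ranges in the order described above, with log2 fold changes after CrOE EVs of -2.45 (SE 0.057, adjusted p = 9.87e-13) for Nsdhl and -2.77 (SE 0.068, adjusted p = 1.5e-12) for Hsd17b7. Dhcr7, the reductase that makes cholesterol in one branch of the pathway, was at 133, 152 and 139.5 CPM in the untreated libraries, 188, 188 and 202 with shCon EVs, 246, 239.6 and 241 with shCr EVs and 17.1, 18.8 and 19.5 with CrOE EVs. Its groups were likewise separate, and its log2 fold change after CrOE EVs was -2.94 (SE 0.068, adjusted p = 9.41e-13). The remaining enzymes, Msmo1 (a methylsterol oxidase), Ebp (a sterol isomerase) and Sc5d (a sterol desaturase), also fell after CrOE EVs, by 1.12, 1.21 and 0.83 on the log2 scale. The rise of Msmo1 after shCon EVs (0.31, SE 0.094, adjusted p = 0.0194) was lost as a call on leaving out untreated replicate 3 (adjusted p 0.0686) or shCon EV replicates 1 and 2 (adjusted p 0.0579 and 0.055).

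**Figure D3:**
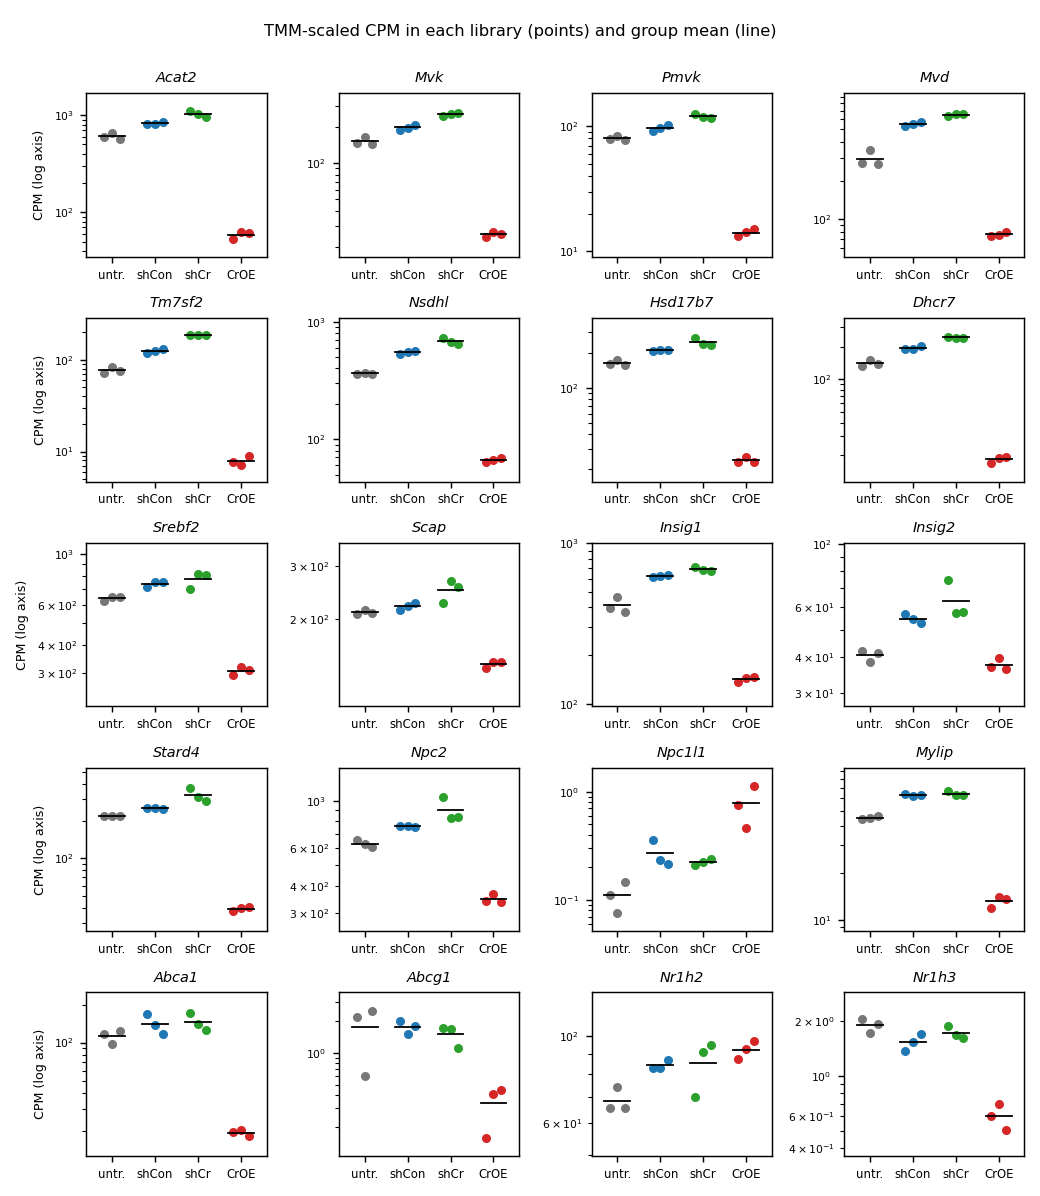
TMM-scaled CPM on log axes for 20 genes, up to 4 per role with the widest range of group means; points are the 3 libraries of a group and lines are group means. In the top rows of enzymes the CrOE EV libraries lie far below the others; Npc1l1 and Nr1h2 have their highest group mean after CrOE EVs.

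Because the enzymes moved together, the sequence before their start sites is shown for 7 members: Hmgcs1, the only member with the sterol-element pattern searched, 4 of the enzymes with separate groups (Mvk, Nsdhl, Tm7sf2 and Dhcr7), Acat2, the enzyme without a CCAAT box in its window, and Soat1, which rose after CrOE EVs. Each line gives the 150 bases before the annotated start, 5′ to 3′ on the gene's strand, from RefSeq's GRCm38.p6 annotation; the submitters' processing notes name mm39 for the counts, so these coordinates are of another build. Capitals mark CCAAT, or ATTGG where the box lies on the other strand, and in Hmgcs1 also TCACCCCAC, a match to the sterol regulatory element pattern.
Hmgcs1 (chr13:119690201-119690350, plus strand): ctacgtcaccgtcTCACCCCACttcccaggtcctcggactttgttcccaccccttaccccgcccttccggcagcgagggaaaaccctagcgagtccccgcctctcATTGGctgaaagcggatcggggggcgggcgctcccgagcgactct
Mvk (chr5:114444119-114444268, plus strand): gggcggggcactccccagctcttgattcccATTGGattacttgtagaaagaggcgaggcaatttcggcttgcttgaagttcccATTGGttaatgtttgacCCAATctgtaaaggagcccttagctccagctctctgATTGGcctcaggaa
Nsdhl (chrX:72918371-72918520, plus strand): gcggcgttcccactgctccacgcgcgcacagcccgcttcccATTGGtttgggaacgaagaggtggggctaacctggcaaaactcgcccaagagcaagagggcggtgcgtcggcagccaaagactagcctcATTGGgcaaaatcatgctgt
Tm7sf2 (chr19:6067851-6068000, minus strand): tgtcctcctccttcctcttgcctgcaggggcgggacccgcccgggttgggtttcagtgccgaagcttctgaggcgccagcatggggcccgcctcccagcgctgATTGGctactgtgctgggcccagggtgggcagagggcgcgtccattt
Dhcr7 (chr7:143830064-143830213, plus strand): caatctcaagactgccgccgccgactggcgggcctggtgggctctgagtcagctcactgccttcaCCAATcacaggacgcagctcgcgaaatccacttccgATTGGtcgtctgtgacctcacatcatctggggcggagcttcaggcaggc
Acat2 (chr17:12960726-12960875, minus strand): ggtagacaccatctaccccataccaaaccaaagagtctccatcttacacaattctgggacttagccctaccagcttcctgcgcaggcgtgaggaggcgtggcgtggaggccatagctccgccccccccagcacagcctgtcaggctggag
Soat1 (chr1:156474329-156474478, minus strand): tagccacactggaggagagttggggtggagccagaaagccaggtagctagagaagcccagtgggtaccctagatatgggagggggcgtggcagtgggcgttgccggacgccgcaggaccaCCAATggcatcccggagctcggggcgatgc

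Windows of 250 bases before to 50 after a start were matched for 26 of the 32 members and for 10225 of the genes tested; the other members are Abcg1, Stard4, Npc1, Fdps, Fdft1 and Sqle. CCAAT, the box bound by NF-Y, was present on either strand in 21 of 26 members (80.8%) and in 14 of 15 enzymes (93.3%), against 43.2% of the genes tested. TCACNCCAC, the sterol element pattern, was present in 1 of 26 members (3.85%) and in 1.43% of the genes tested. The E-box CACGTG was present in 6 of 26 members (23.1%: Abca1, Dhcr7, Hsd17b7, Insig1, Sc5d and Scap) and in 11.3% of the genes tested. A strict pattern for DR4, the direct repeat that LXR binds, was present in 0 of 26 members and in 0.0685% of the genes tested. Forms of DR4 or of the sterol element that differ from the patterns searched were not counted. Whether the windows hold such forms was not tested. In the printed stretches Mvk holds 4 CCAAT boxes, Nsdhl and Dhcr7 hold 2 each, and Hmgcs1, Tm7sf2 and Soat1 hold 1 each. Each pattern was counted on its own, so matches to different patterns may overlap; Dhcr7 has 3 annotated starts, and the stretch shown belongs to the one with a CCAAT box. These matches describe the letters of the windows; no binding was measured.

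Among the sensors of sterol, Srebf2 had its group means in the same order as most enzymes. Srebf2 was at 621, 651 and 646 CPM in the untreated libraries, 714, 751 and 751 with shCon EVs, 704, 818 and 807 with shCr EVs and 294, 321 and 310.2 with CrOE EVs. The CrOE EV libraries lay below all others, and the shCr EV libraries overlapped those after shCon EVs. The log2 fold changes of Srebf2 were 0.21 (SE 0.062, adjusted p = 0.0179) with shCon EVs, 0.28 (SE 0.062, adjusted p = 0.00307) with shCr EVs and -1.05 (SE 0.062, adjusted p = 5.85e-09) with CrOE EVs. The call after shCon EVs was lost on leaving out untreated replicate 1 (adjusted p 0.0824) or shCon EV replicates 2 and 3 (adjusted p 0.0654 and 0.0626).

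Scap, the escort of SREBP2, was at 208, 214 and 209 CPM in the untreated libraries, 215, 222 and 226 with shCon EVs, 226, 267 and 256 with shCr EVs and 137, 144 and 144 with CrOE EVs. It was no call after shCon EVs (log2 fold change 0.068, SE 0.058, adjusted p = 0.388), rose after shCr EVs (0.25, SE 0.058, adjusted p = 0.005) and fell after CrOE EVs (-0.57, SE 0.059, adjusted p = 1.35e-06). The rise was lost as a call when the other groups were left out of the fit (adjusted p 0.0561). Exons of Scap overlap those of a gene on the other strand over 13.2% of their bases.

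Of the INSIG genes, Insig1 was called lower after CrOE EVs and Insig2 was not. Insig1, which holds SCAP back and is itself a target of SREBP2, was at 398, 466 and 373 CPM in the untreated libraries, 616, 629.9 and 636 with shCon EVs, 713, 685 and 671 with shCr EVs and 136, 144 and 147 with CrOE EVs. It rose after shCon and shCr EVs, with log2 fold changes of 0.61 (SE 0.072) and 0.74 (SE 0.072), and fell by 1.54 on the log2 scale after CrOE EVs (SE 0.074, adjusted p = 7.03e-10). Insig2, its paralog, was at 41.9, 38.6 and 41.4 CPM in the untreated libraries, 56.7, 54.5 and 52.6 with shCon EVs, 74.7, 57.3 and 57.4 with shCr EVs and 36.9, 39.9 and 36.3 with CrOE EVs. Insig2 rose after shCon EVs (0.43, SE 0.092, adjusted p = 0.00297) and shCr EVs (0.63, SE 0.092, adjusted p = 0.000147), but its CrOE EV and untreated libraries overlapped, and that difference was no call (-0.11, SE 0.093, adjusted p = 0.3; -0.12 by DESeq2). Relative to shCon EVs Insig2 was lower after CrOE EVs (-0.54, SE 0.092, adjusted p = 0.000167), while Insig1 was lower by more (-2.14, SE 0.075, adjusted p = 4.28e-11); the difference between the paralogs was not tested.

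Of the genes of uptake, transport and storage, 3 were called lower after CrOE EVs and 3 higher, 1 of them Npc1l1 (all genes tested: 37.0% lower and 36.7% higher). Stard4, a carrier that moves cholesterol between membranes and a target of SREBP2, was at 222, 219 and 221 CPM in the untreated libraries, 253, 256 and 249.7 with shCon EVs, 371, 316 and 293 with shCr EVs and 37.5, 39.3 and 40.1 with CrOE EVs. The CrOE EV libraries were lowest by a wide margin (log2 fold change -2.50, SE 0.076, adjusted p = 9.3e-12), and the 4 groups did not overlap. Its rise after shCon EVs was small (0.20, SE 0.071, adjusted p = 0.0431) and was lost as a call whichever of the 6 libraries was left out: untreated replicates 1, 2 and 3 (adjusted p 0.115, 0.0764 and 0.0994) or shCon EV replicates 1, 2 and 3 (adjusted p 0.0911, 0.115 and 0.0821). The rise after shCr EVs was larger (0.57, SE 0.071, adjusted p = 4.24e-05).

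Mylip, a ubiquitin ligase that targets lipoprotein receptors for breakdown and an LXR target, was at 44.4, 45.1 and 46 CPM in the untreated libraries, 64.3, 62.5 and 62.9 with shCon EVs, 66.6, 63.2 and 62.7 with shCr EVs and 12, 13.9 and 13.6 with CrOE EVs. Its shCon and shCr EV libraries overlapped, lay above untreated cells by 0.49 and 0.51 on the log2 scale and lay far above the CrOE EV libraries, whose log2 fold change against untreated cells was -1.78 (SE 0.061, adjusted p = 2.79e-11).

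Npc1 and Npc2, which hand cholesterol out of the lysosome one after the other, were called in opposite directions after CrOE EVs. Npc1 was at 93.3, 103 and 97 CPM in the untreated libraries, 139, 141 and 147 with shCon EVs, 124, 142 and 139 with shCr EVs and 199.9, 216 and 198 with CrOE EVs. Its CrOE EV libraries were the highest, with log2 fold changes against untreated cells of 0.54 (SE 0.064, adjusted p = 2.81e-05), 0.46 (SE 0.064, adjusted p = 9.05e-05) and 1.06 (SE 0.064, adjusted p = 6.41e-09) after shCon, shCr and CrOE EVs. Npc2 was at 656, 626 and 609.9 CPM in the untreated libraries, 761, 765 and 753 with shCon EVs, 1036, 828 and 836 with shCr EVs and 341, 367 and 339 with CrOE EVs. It rose after shCon EVs (0.27, SE 0.077, adjusted p = 0.0153; lost on leaving out untreated replicate 3, adjusted p 0.0596) and shCr EVs (0.51, SE 0.077, adjusted p = 0.000193), and fell after CrOE EVs (-0.85, SE 0.078, adjusted p = 4.23e-07). Soat1, which esterifies cholesterol for storage, was at 135, 137 and 129 CPM in the untreated libraries, 156, 156 and 158 with shCon EVs, 157, 141 and 148 with shCr EVs and 195, 199.8 and 193 with CrOE EVs. Like Npc1 it was highest after CrOE EVs, with no overlap with any other group (log2 fold change 0.55, SE 0.049, adjusted p = 3.24e-07). Its smaller rise after shCon EVs was a call (0.23, SE 0.049, adjusted p = 0.00262). Its rise after shCr EVs (0.16, SE 0.049, adjusted p = 0.0236) was lost as a call when the other groups were left out of the fit (adjusted p 0.135), with no filter on low counts (0.0877), and on leaving out untreated replicates 1 and 3 (adjusted p 0.0812 and 0.117) or shCr EV replicate 1 (adjusted p 0.051).

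Npc1l1, a membrane protein of sterol uptake best known from the intestine, was barely detected. Its counts were 3, 2 and 4 in the untreated libraries, 10, 7 and 6 with shCon EVs, 6, 7 and 9 with shCr EVs and 24, 16 and 40 with CrOE EVs. The CrOE EV libraries held the most, with a log2 fold change of 2.77 (SE 0.43) against untreated cells. Npc1l1 passed the filter on low counts only through those libraries, so its call there is a description and not a test. The differences with shCon EVs (adjusted p = 0.0813) and shCr EVs (0.166) were no calls.

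The efflux genes fell after CrOE EVs together with the enzymes, apart from Nr1h2. Abca1, the pump that loads cholesterol onto apolipoproteins, was at 116, 97.2 and 123 CPM in the untreated libraries, 168, 138 and 118 with shCon EVs, 172, 139.9 and 126 with shCr EVs and 19.6, 20.2 and 18.3 with CrOE EVs. The CrOE EV libraries lay far below the rest (log2 fold change -2.53, SE 0.15, adjusted p = 4.39e-09), and the shCon EV libraries overlapped both the untreated and the shCr EV libraries. After shCon EVs Abca1 was no call (0.33, SE 0.13, adjusted p = 0.0686); it was one with no filter on low counts (adjusted p 0.0396), with replicate number as a block (0.038) and on leaving out shCon EV replicate 3 (adjusted p 0.023). After shCr EVs it was a call (0.38, SE 0.13, adjusted p = 0.0411), lost when the other groups were left out of the fit (adjusted p 0.0654) and on leaving out untreated replicates 1 and 2 (adjusted p 0.0853 and 0.138) or shCr EV replicates 1 and 2 (adjusted p 0.122 and 0.0634).

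Abcg1, a second efflux pump, was low, at 2.2, 0.61 and 2.5 CPM in the untreated libraries, 2.00, 1.53 and 1.8 with shCon EVs, 1.73, 1.7 and 1.11 with shCr EVs and 0.159, 0.407 and 0.449 with CrOE EVs. Untreated replicate 2 lay far under its replicates, and the CrOE EV libraries lay under every other library. Abcg1 fell after CrOE EVs (-2.36, SE 0.48, adjusted p = 0.000641) and passed no test with shCon EVs (adjusted p = 1) or shCr EVs (0.671). Without untreated replicate 2 its log2 fold change was -0.40 with shCon EVs and -0.65 with shCr EVs, in place of 0.0001 and -0.24.

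Nr1h3, which encodes LXR alpha, was also low, at 2.05, 1.72 and 1.91 CPM in the untreated libraries, 1.36, 1.53 and 1.69 with shCon EVs, 1.87, 1.67 and 1.62 with shCr EVs and 0.603, 0.698 and 0.505 with CrOE EVs. It fell after CrOE EVs (-1.65, SE 0.19, adjusted p = 3.34e-06) and was no call after shCon EVs (-0.31, SE 0.17, adjusted p = 0.17) or shCr EVs (-0.14, SE 0.17, adjusted p = 0.532). Nr1h2, which encodes the widely expressed LXR beta, was at 65.9, 74.3 and 65.7 CPM in the untreated libraries, 82.9, 83 and 87.1 with shCon EVs, 70, 91.2 and 94.8 with shCr EVs and 87.3, 92.7 and 97.5 with CrOE EVs. It was higher after CrOE EVs than in untreated cells (0.43, SE 0.098, adjusted p = 0.00138), and shCr EV replicate 1 lay within the untreated range. It was also called higher after shCon EVs (0.30, SE 0.098, adjusted p = 0.0299) and shCr EVs (0.32, SE 0.098, adjusted p = 0.0226). The call after shCon EVs was lost as a call on leaving out untreated replicates 1 and 3 (adjusted p 0.106 and 0.106) or shCon EV replicates 1, 2 and 3 (adjusted p 0.0613, 0.0635 and 0.096). The call after shCr EVs was lost when the other groups were left out of the fit (adjusted p 0.109) and on leaving out untreated replicates 1 and 3 (adjusted p 0.0884 and 0.0932) or shCr EV replicates 2 and 3 (adjusted p 0.0851 and 0.0978).

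**Figure D4:**
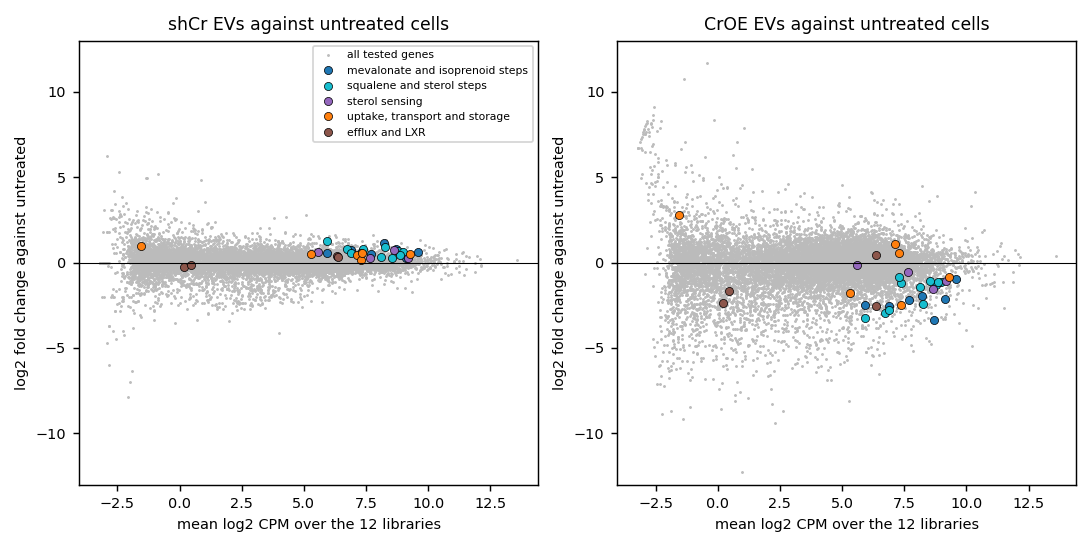
Log2 fold change against untreated cells over mean log2 CPM for all 14279 genes tested (grey) and the 32 genes by role (coloured), after shCr EVs (left) and CrOE EVs (right). After shCr EVs the enzymes lie in a narrow band above 0; after CrOE EVs they lie at -3.35 to -0.83, within the spread of the other genes.

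The direct comparison of shCr with shCon EVs asks whether the knockdown in the donor line changed these genes in the recipients. With shCr EVs 10 of the 32 genes were called higher and 0 lower, where 5.22% of all genes tested were called higher and 3.51% lower. They were the enzymes Acat2, Mvk, Pmvk, Fdps, Tm7sf2, Nsdhl, Hsd17b7, Ebp and Dhcr7, and the carrier Stard4. The log2 fold changes were small, from 0.22 (SE 0.061) for Fdps to 0.56 (SE 0.074) for Tm7sf2, with a median of 0.24 over the 18 enzymes and 0.0043 over all genes tested. Tm7sf2 (adjusted p = 0.000554), Ebp (0.44, adjusted p = 0.000858), Nsdhl (0.32, 0.0028), Mvk (0.35, 0.00322) and Dhcr7 (0.33, 0.00509) were calls under every alternative run. Srebf2 (0.072, SE 0.062, adjusted p = 0.554), Insig1 (0.14, SE 0.072, adjusted p = 0.289) and Insig2 (0.21, SE 0.091, adjusted p = 0.199) were no calls.

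Of the other calls, 4 depended on single libraries. Without shCon EV replicate 1 the number called higher was 6, with Acat2 (adjusted p = 0.0784), Pmvk (0.0573), Fdps (0.199) and Hsd17b7 (0.142) lost. Over all libraries left out in turn, Acat2 lost its call without shCon EV replicates 1 and 2 (adjusted p 0.0784 and 0.0683). Fdps did without shCon EV replicates 1, 2 and 3 (adjusted p 0.199, 0.158 and 0.0874) or shCr EV replicates 1 and 2 (adjusted p 0.0877 and 0.0928), and also with median-of-ratios scaling (0.0543) or no filter on low counts (0.0973). Hsd17b7 did without shCon EV replicates 1, 2 and 3 (adjusted p 0.142, 0.116 and 0.114) or shCr EV replicates 1 and 2 (adjusted p 0.0711 and 0.0531), and also with no filter on low counts (0.072). When the other groups were left out of the fit, Fdps (0.0775), Hsd17b7 (0.104) and Stard4 (0.0585) lost theirs. Conversely, Msmo1 (0.30, SE 0.093, adjusted p = 0.0655) became a call without shCr EV replicates 2 and 3 (adjusted p 0.0464 and 0.027), Npc2 (0.25, SE 0.077, adjusted p = 0.0718) without shCr EV replicates 2 and 3 (adjusted p 0.0473 and 0.0462), Sc5d (0.21, SE 0.059, adjusted p = 0.052) without shCr EV replicate 2 (adjusted p 0.0382) and Scap (0.18, SE 0.058, adjusted p = 0.0841) without shCr EV replicate 1 (adjusted p 0.00376). By DESeq2 these 4 and Mvd (0.0364) were calls, and the number called higher was 15. Replicate 1 of the shCr EV group was the highest library of all for 13 of the 18 enzymes. Its mitochondrial share of counts was 0.622%, against 1.44% and 1.7% in its replicates. What that share had to do with the enzymes was not tested. Without shCr EV replicate 1, the differences of Idi1 (0.19 with all libraries, -0.0075 without it) and Cyp51 (0.098, -0.011) were near 0, whereas that of Tm7sf2 was 0.55 and the number called higher was 9.

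**Figure D5:**
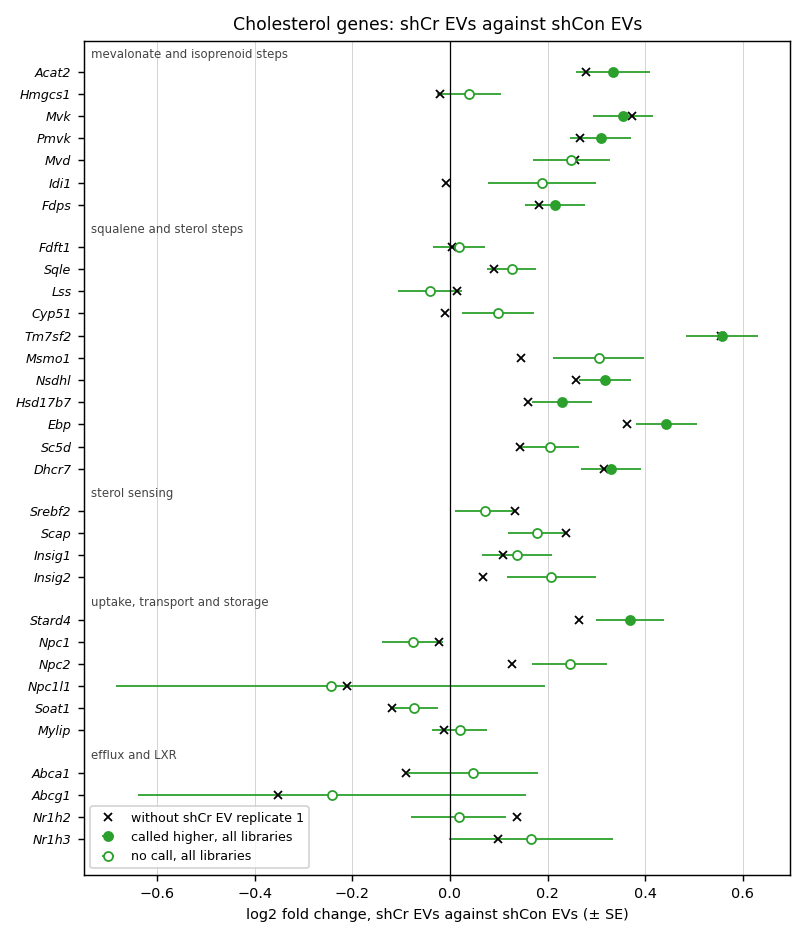
Log2 fold change of shCr EVs against shCon EVs with its standard error (filled: called higher, open: no call) and the value without shCr EV replicate 1 (crosses), for the 32 genes by role. The filled points lie between 0.22 and 0.56; the cross of Idi1 lies at -0.0075 and that of Tm7sf2 on its point.

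Between CrOE EVs and the other EVs the median log2 fold change of the 32 genes was -1.82 against shCon EVs and -1.99 against shCr EVs (0.0075 and 0.0076 over all genes tested). Against shCon EVs 28 genes were called lower and 3 higher (all genes tested: 36.1% lower and 36.5% higher), and against shCr EVs likewise 28 lower and 3 higher (37.0% lower and 36.9% higher). Npc1 and Soat1 were called higher in both comparisons, which share the CrOE EV libraries; the third was Npc1l1, whose call the filter fixed. Against shCr EVs the log2 fold changes of Tm7sf2, Acat2 and Dhcr7 were -4.53 (SE 0.09), -4.13 (SE 0.086) and -3.71 (SE 0.07). Npc1 was at 0.52 (SE 0.063, adjusted p = 6.86e-06) against shCon EVs and 0.60 (SE 0.063, adjusted p = 1.7e-06) against shCr EVs, and Soat1 at 0.32 (SE 0.049, adjusted p = 5.53e-05) and 0.40 (SE 0.049, adjusted p = 7.81e-06). Nr1h2 was no call in either, at 0.13 (SE 0.097, adjusted p = 0.23) against shCon EVs and 0.12 (SE 0.097, adjusted p = 0.294) against shCr EVs.

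The neighbouring genes of the pathway, 33 on fixed lists of which 32 were tested, did not move as one. Against untreated cells 10 were called higher and 5 lower with shCon EVs (all genes tested: 18.0% and 20.2%). With shCr EVs 7 were higher and 5 lower (18.4% and 18.8%), and with CrOE EVs 18 higher and 10 lower (36.7% and 37.0%). Between shCr and shCon EVs 1 was called higher and 0 lower (5.22% and 3.51%). It was Scarb1, a lipoprotein receptor, which was at 196 ± 6.85 CPM in untreated cells (mean ± SD, n = 3). With EVs its mean was 248 ± 7.76 (shCon), 316 ± 12.3 (shCr) and 49.4 ± 0.297 (CrOE), the same order as the enzymes. Vldlr, another lipoprotein receptor, rose after all 3 kinds of EV, from 31.7 ± 2.05 to 69.9 ± 1.89, 64.8 ± 5.24 and 76.5 ± 3.32 CPM. Lipa, the lysosomal lipase that frees cholesterol from its esters, fell after CrOE EVs (-0.30, SE 0.084, adjusted p = 0.00523).

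Of 9 genes of SREBP processing and sterol-regulated breakdown, 6 were called higher and 1 lower after CrOE EVs, where 36.7% of all genes tested were higher and 37.0% lower. Srebf1, which encodes SREBP1, the relative of SREBP2 tied to fatty acid synthesis, was no call with shCon EVs (-0.13, SE 0.089, adjusted p = 0.275), shCr EVs (-0.24, SE 0.089, adjusted p = 0.0538) or CrOE EVs (-0.20, SE 0.089, adjusted p = 0.0544). The Golgi proteases of SREBP moved apart after CrOE EVs, Mbtps1 falling (-0.46, SE 0.043, adjusted p = 6.43e-07) and Mbtps2 rising (0.93, SE 0.081, adjusted p = 2.81e-07), and both were no calls after shCon and shCr EVs. Of 8 genes of isoprenoid branches and the sterol nucleus, 5 were called higher and 2 lower after CrOE EVs, against the same 36.7% and 37.0% of all genes tested. Ggps1, which makes the geranylgeranyl group for prenylation from the product of Fdps, rose (0.97, SE 0.11, adjusted p = 4.29e-06), while Lbr, a nuclear membrane protein that is also a sterol reductase with the activity of Tm7sf2, fell (-0.52, SE 0.059, adjusted p = 4.01e-06). Lbr rose after shCon EVs (0.25, SE 0.059, adjusted p = 0.0052) and shCr EVs (0.38, SE 0.059, adjusted p = 0.000215). Of 5 genes tested for oxysterol synthesis and other efflux, 2 were called higher and 3 lower after CrOE EVs, again beside 36.7% and 37.0% of all genes tested. Cyp7b1, an oxysterol hydroxylase named after its values were seen, was called lower with shCon EVs (-0.95, SE 0.13, adjusted p = 0.000114), shCr EVs (-0.79, SE 0.13, adjusted p = 0.000416) and CrOE EVs (-3.82, SE 0.16, adjusted p = 1.84e-10). Hsd3b7, a steroid dehydrogenase of bile acid synthesis named in the same way, was called higher with shCon EVs (0.77, SE 0.095, adjusted p = 4.29e-05), shCr EVs (0.50, SE 0.095, adjusted p = 0.00116) and CrOE EVs (0.90, SE 0.095, adjusted p = 1.78e-06). Ch25h, which makes an oxysterol, was low and was at 0.88 ± 0.134 CPM in untreated cells, 0.316 ± 0.166 with shCon EVs, 0.324 ± 0.0879 with shCr EVs and 0.335 ± 0.115 with CrOE EVs, a lower level and a call in all 3 comparisons with untreated cells. Cyp27a1 held 2, 1 and 2 counts in untreated libraries and 1, 1 and 2 after CrOE EVs and was not tested.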

How the data were processed

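The authors deposited estimated counts per gene symbol, 1 column per library, with no scaling between libraries; they were taken as estimated counts because 39.8% of values were not whole. The submitters' processing notes name featureCounts and mm39; aligner, annotation and use of strand are not given in the sources used here. Values were rounded to whole numbers; the design fixed at the start had assumed counts. No column was left unmapped. In 27 rows the symbol is a date.

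Genes were filtered by filterByExpr (14279 kept), scaled by TMM and tested with edgeR 4.0.16 (R 4.3.3), glmQLFit and glmQLFTest, on all 12 libraries with a mean per group (8 residual degrees of freedom; biological coefficient of variation 8.90%). P-values were adjusted by Benjamini-Hochberg over all genes tested, and an adjusted p under 0.05 was a call. Standard errors come from the F statistic. CPM are TMM-scaled. The fit was checked on simulated counts. Other settings tried were DESeq2 1.42.0, its size factors in edgeR, other low-count filters, a block for replicate number, leaving out each library, and leaving the other groups out of the fit. Shared 31-base stretches and exon overlaps come from GENCODE M21.

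The members, lists, printed promoters and tests were chosen with earlier results of these data known. Values in every library are given for up to 4 genes per role with the widest range of group means, for the sterol sensors, and, chosen after their values were seen, for Idi1, Npc1 and Soat1; Cyp7b1 and Hsd3b7 were also named after their values were seen. Counting error is small at this depth except for Npc1l1, Abcg1, Nr1h3, Ch25h and Cyp27a1.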

Additional observations from a re-analysis of the deposited data

How the results depend on the processing

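Of 192 comparisons of a single gene 159 were calls, and 7 of these were lost under an alternative other than leaving out a library, 17 when those are included; 6 comparisons with no call became one. The numbers of genes called against untreated cells stayed within 1.5 times under every alternative run. Leaving out 1 library gave 6 to 12 genes called higher with shCr against shCon EVs, in place of 10. Directions changed only where the difference was no call. Leaving out 1 library, the log2 fold changes of shCr against shCon EVs ranged as follows: Hmgcs1 -0.0194 to 0.0684, Idi1 -0.0075 to 0.29, Fdft1 -0.0102 to 0.0397, Lss -0.0758 to 0.0141, Cyp51 -0.0106 to 0.15, Npc1l1 -0.38 to 0.0016, Mylip -0.0114 to 0.0369, Abca1 -0.0898 to 0.18 and Nr1h2 -0.0651 to 0.14. For Abcg1 against untreated cells the range was -0.40 to 0.33 with shCon EVs and -0.65 to 0.0846 with shCr EVs; with the other groups left out of the fit its value with shCon EVs was -0.0033. Nr1h2 with CrOE against shCr EVs ranged from -0.0067 to 0.20. The cause was not tested. A filter asking each library for 10 counts removed Abcg1 and Npc1l1.

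Pairing of libraries by replicate number was not evident, though 3 libraries per group cannot exclude it. Among same-numbered pairs from different groups, 4 of 18 had deviations that correlated over 0.1 (from -0.20 to 0.32). Among differently numbered pairs 7 of 36 did (from -0.36 to 0.35). Of 12 libraries, 5 correlated best with their own number. Untreated replicate 1, shCr EV replicate 1 and CrOE EV replicate 2 had the lowest mitochondrial share of their groups. Deviations of shCr EV replicate 1 correlated at 0.315 with those of untreated replicate 1 and at 0.273 with those of CrOE EV replicate 2. Between the latter 2 libraries the value was 0.15. The cause was not tested. With the replicate number as a block, Abca1 with shCon EVs against untreated cells (log2 fold change 0.32, adjusted p = 0.038) and Msmo1 with shCr against shCon EVs (0.30, adjusted p = 0.0451) became calls, and no call was lost. Genes with few counts, such as Npc1l1, limit what the depth can show.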
